A study of Saccharomyces cerevisiae with 8 samples.

Results

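The transcriptomes of the sin3∆ and srb2∆ strains were set directly against each other, so that the genes and processes that separate the 2 deletions could be described without the wild type in the contrast. The strains were chosen by genotype: 4 of the 8 libraries of the series entered the contrast, 2 of sin3∆ (replicates 1 and 2) and 2 of srb2∆ (replicates 2 and 3). All cells were derived from ScY01a, a strain of mating type a that comes from ScY01, an industrial Saccharomyces cerevisiae strain evolved for growth in the heat. In the sin3∆ strain the whole SIN3 reading frame was replaced by KanMX, a cassette for resistance to G418, and in the srb2∆ strain the whole SRB2 reading frame was replaced by the same cassette. Neither the other deletion of the series, mig1∆, nor the unmodified wild type ScY01a entered the contrast, although their libraries shared the estimate of spread. All strains were cultured at 30°C in yeast extract and tryptone with 200 g/L glucose and collected after 10 h, in early log phase, and RNA was sequenced as paired reads of 150 bp. Each deletion was represented by a single strain, so an effect of the deletion and any other difference between these strains cannot be told apart.

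Sin3 is the scaffold of the histone deacetylase complexes built around Rpd3. The large Rpd3 complex is brought to promoters by DNA-binding proteins, of which Ume6, bound at the URS1 element of early meiotic genes, is the best known, and it holds those genes down in cells that grow by mitosis. Srb2, also called Med20, is a subunit of the head module of Mediator, the complex that passes signals from activators such as Gcn4 to RNA polymerase II. The comparison therefore sets the loss of a corepressor scaffold against the loss of a coactivator subunit.

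Values were given as RPKM, read counts scaled to the length of the gene and to the mapped reads of the library, and summed to 1133049 and 1150769 in the sin3∆ libraries, against 1071561 and 1042166 in the srb2∆ libraries. Across genes, the replicates correlated with r = 0.9865 in sin3∆ and r = 0.9914 in srb2∆, while libraries of different deletions correlated with r between 0.9329 and 0.9407. These correlations run across genes of the same libraries and carry no test. Cytosolic ribosomal protein genes took 41.1% and 41.1% of the summed values in sin3∆ libraries, 42.8% and 42.0% in srb2∆ libraries, and 19.3% and 22.5% in wild type libraries. Levels of the wild type are therefore given below only as a description, and the part of that gap in them was not tested.

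The deleted genes fitted the labels of all 4 libraries. SIN3 was listed at 0 in both sin3∆ libraries, against 26.8 and 27.4 RPKM in the srb2∆ libraries and 23.2 and 17.1 RPKM in the wild type. SRB2 was at 59.3 and 56.5 RPKM in the sin3∆ libraries and was listed at 0 in both srb2∆ libraries, against 84.2 and 77.8 RPKM in the wild type. None of the 8 nearest neighbours of the deleted genes was called. The largest difference near SRB2 was that of DOG2, with a log2 fold change of 0.81, and the largest near SIN3 was that of RPB11, with -0.55.

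A gene was called where sin3∆ and srb2∆ differed at least 2-fold on the scale of RPKM + 1 and the adjusted p of limma, taken over all 5628 genes that reached 1 RPKM in 2 or more of the 8 libraries, was at most 0.05. By this rule 670 genes were higher in sin3∆ than in srb2∆, 11.9% of those tested, and 166 genes were lower, 2.95% of those tested, together 14.9%. Counts of called genes in the lists below are to be read beside these shares. The imbalance was larger among strong differences: of the genes in which neither strain was listed at 0 throughout, 207 were at least 4-fold higher and 25 at least 4-fold lower, and 71 were at least 8-fold higher and 8 at least 8-fold lower. The median log2 fold change over all genes tested was 0.006. Quantile normalization, which forces all libraries onto one distribution, moved that median to -0.122 and changed the split to 508 higher and 251 lower genes, so that 66.9% of the calls were higher in place of 80.1%. The plot of mean expression in sin3∆ against srb2∆ shows the called genes on either side of the diagonal. These are bulk cultures, in which fewer cells that express a gene and less of its RNA per cell cannot be told apart.

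**Figure D1:**
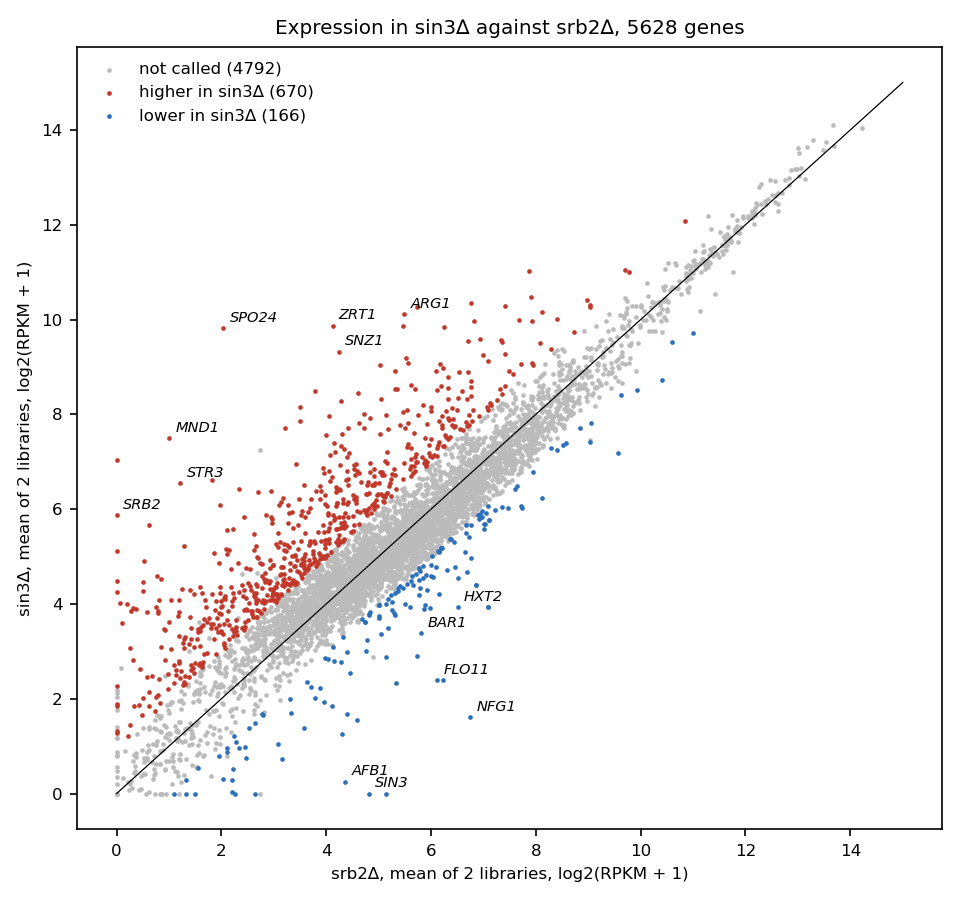
Mean log2(RPKM + 1) of the 2 sin3∆ libraries (vertical axis) against that of the 2 srb2∆ libraries (horizontal axis) for 5628 genes, with the line of equality. Of the called genes, 670 lie above the line (red, higher in sin3∆) and 166 below it (blue, lower in sin3∆), and SRB2 and SIN3 lie on the axes.

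The wild type did not always lie between the deletions. Among the 670 genes higher in sin3∆, its mean lay above both deletions for 193 genes, nearer sin3∆ for 140, nearer srb2∆ for 190 and below both for 147. Among the 166 genes lower in sin3∆, the counts were 51 above both, 32 nearer sin3∆, 50 nearer srb2∆ and 33 below both. The wild type mean thus lay outside the range of the deletions for about as many genes as it lay between them.

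Genes of early meiosis were among the largest differences. In budding yeast these genes serve the pairing and recombination of homologous chromosomes and are kept silent in growing haploid cells. Of 34 early meiotic genes tested, 26 were higher in sin3∆ and 1, IME1, was lower, and the median log2 fold change of the list was 1.79, against 0.006 over all genes. MND1, which acts with Hop2 in strand exchange, was at 168 and 191 RPKM in sin3∆ libraries, against 1.40 and 0.667 RPKM in srb2∆ libraries and 5.19 and 5.26 RPKM in the wild type. Its log2 fold change was 6.49 ± 0.18 (SE), with an adjusted p of 4.0e-07 in limma. SAE3, which loads the meiotic recombinase Dmc1, was at 35.6 and 31.7 RPKM in sin3∆ and was listed at 0 in every srb2∆ and wild type library.

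NDJ1, which ties telomeres to the nuclear envelope in meiotic prophase, was at 22.4 and 24 RPKM in sin3∆, against 0.718 and 0.677 RPKM in srb2∆, a 14.2-fold difference. SPO13, which keeps sister centromeres together in the first division, was at 14.2 and 15.8 RPKM in sin3∆, against 0.204 and 0.104 RPKM in srb2∆. Both genes were low in the wild type too, NDJ1 at 2.21 and 1.88 RPKM and SPO13 at 0.828 and 1.17 RPKM, so sin3∆ alone held them above the other strains. HED1, a meiosis-specific gene, was also highest in sin3∆, at 48.6 and 50.6 RPKM, against 0.268 and 0.844 RPKM in srb2∆ and 8.43 and 10.3 RPKM in the wild type. The wild type mean of HED1 lay nearer sin3∆ than srb2∆ on the log2 scale, so srb2∆ also stood apart from the wild type. SPO24, which encodes a small protein of the prospore membrane, reached 832 and 974 RPKM in sin3∆, against 15.9 and 0 RPKM in srb2∆. Its log2 fold change of 7.78 ± 1.12 (SE) was the largest of all genes in which srb2∆ was not listed at 0 throughout (limma adjusted p = 8.1e-04), but it ran between 5.74 without srb2∆ replicate 3 and 9.82 without srb2∆ replicate 2.

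The mean of the wild type lay nearer srb2∆ for 16 of the 26 early meiotic genes that were higher in sin3∆, and below both deletions for another 5. As a share of all RPKM, the list made up 0.0491% and 0.0511% in sin3∆ libraries, against 0.00959% and 0.00993% in srb2∆ libraries. IME1, the master activator that opens meiosis, went the other way: it was at 0.918 and 0.495 RPKM in sin3∆, against 4.63 and 4.50 RPKM in srb2∆ and 2.14 and 1.82 RPKM in the wild type. NDT80, the activator of the middle genes, was likewise lower, at 0.703 and 1.22 RPKM in sin3∆, against 3.75 and 4.30 RPKM in srb2∆. Of 23 middle and late sporulation genes tested, 2 were higher (SPR6 and AMA1) and 2 lower (NDT80 and SPS4), with a median log2 fold change of -0.14. The early genes thus separated the deletions while the later ones did not do so as a list. Most early genes were low, and the count of 26 was 14 where at least 10 RPKM was required and 17 with a pseudocount of 5. A summed level of 6 markers of sporulating cells was 8.58 and 7.54 RPKM in sin3∆ libraries, against 19.5 and 18.5 RPKM in srb2∆ libraries, none of the 6 was at 0 in any library of these strains, and their part in these differences was not tested.

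The URS1 core, GCCGCC on either strand, was looked for in the 250 bases before the start codon in the R64 reference sequence from RefSeq. It was present in 18 of the 34 early meiotic promoters (52.9%), against 232 of 5576 (4.16%) of all promoters of tested genes. Of the 664 promoters of genes called higher, 11.6% held it, against 3.11% of the 161 promoters of genes called lower. MND1 had no such core in that window. The stretches of 3 early meiotic promoters and that of the arginase gene CAR1, itself higher in sin3∆, are shown because the core stood within 160 bases of each start codon. They lie at chrVIII:262627-262692 (SAE3, reverse strand), chrXV:117507-117572 (NDJ1, reverse strand), chrVIII:131922-131987 (SPO13, forward strand) and chrXVI:339759-339824 (CAR1, forward strand), and are written 5′ to 3′ on the strand of the gene with 30 bases on either side of the core in capitals.
SAE3: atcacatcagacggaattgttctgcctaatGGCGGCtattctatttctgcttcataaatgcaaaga
NDJ1: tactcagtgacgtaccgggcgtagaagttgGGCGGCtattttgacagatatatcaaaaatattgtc
SPO13: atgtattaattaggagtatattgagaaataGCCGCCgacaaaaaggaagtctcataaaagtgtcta
CAR1: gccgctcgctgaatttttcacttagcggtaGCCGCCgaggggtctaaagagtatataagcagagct
In SAE3 and NDJ1 the core reads on the strand opposite to the gene, and in SPO13 and CAR1 on the strand of the gene. As written here, its last base stood 104, 83, 90 and 150 bases before the start codons of SAE3, NDJ1, SPO13 and CAR1, in that order. A match of these letters is a description of the promoter and was not measured as a bound site.

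**Figure D2:**
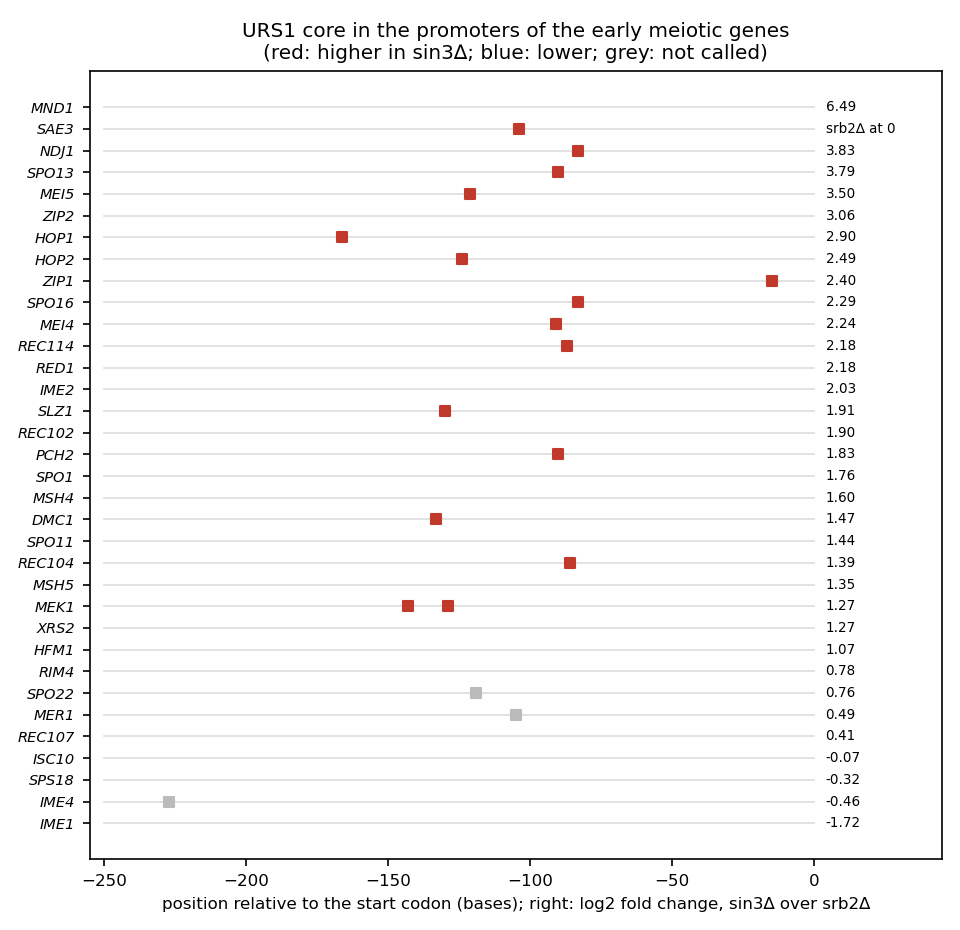
Each line is the 250 bases before the start codon of 1 of 34 early meiotic genes, in the order of their log2 fold change of sin3∆ over srb2∆ (numbers at right), and each square is a URS1 core on either strand. Cores stand in 18 of the 34 promoters, and 15 of those 18 genes were called higher in sin3∆ (red).

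Amino acid synthesis was the broadest process to separate the strains. All 10 arginine synthesis genes tested were higher in sin3∆, with a median log2 fold change of 2.78, and the list made up 0.272% and 0.279% of all RPKM in sin3∆ libraries, against 0.0272% and 0.0262% in srb2∆ libraries. ARG1, argininosuccinate synthetase, was at 1079 and 1145 RPKM in sin3∆, against 44 and 44 RPKM in srb2∆, a 24.7-fold difference. ARG3, ornithine carbamoyltransferase, was at 96.1 and 98.5 RPKM in sin3∆, against 3.27 and 1.95 RPKM in srb2∆. The replicates of each strain lay close together, and no value of one strain came near those of the other. Their log2 fold changes were 4.63 ± 0.08 (SE) and 4.79 ± 0.17 (SE), each with a limma adjusted p of 8.9e-07 or less.

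ARG4, argininosuccinate lyase, was at 918 and 951 RPKM in sin3∆, against 46 and 40.5 RPKM in srb2∆ and 167 and 166 RPKM in the wild type. The wild type mean lay nearer srb2∆ than sin3∆ for 8 of the 10 arginine synthesis genes, and below both for the other 2. Arginine breakdown moved in the same direction: 4 of 7 genes tested were higher in sin3∆ and none was lower. CAR1, arginase, was at 1015 and 1014 RPKM in sin3∆, against 203 and 203 RPKM in srb2∆ and 54.9 and 54.7 RPKM in the wild type, and CAR2, ornithine transaminase, was 3.71-fold higher. Genes that make arginine and genes that degrade it were thus both higher in the same bulk libraries.

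Of 11 lysine synthesis genes tested, 8 were higher and none lower (median log2 fold change 1.08). The wild type mean lay below both deletions for 6 of these 8. LYS20, homocitrate synthase, was at 1391 and 1453 RPKM in sin3∆, against 243 and 238 RPKM in srb2∆. Branched-chain amino acid synthesis had 7 of 12 genes higher and none lower (median 1.20), with the wild type mean below both deletions for 5 of the 7. BAT2, the cytosolic branched-chain aminotransferase, was at 1003 and 1003 RPKM in sin3∆, against 109 and 113 RPKM in srb2∆ and 38.1 and 38.2 RPKM in the wild type, so that both deletions were above the wild type. LEU4, 2-isopropylmalate synthase, was 6.03-fold higher. All 7 histidine synthesis genes had a positive log2 fold change, between 0.46 and 2.86, and 3 of them were called. For 2 of these 3 the wild type mean lay below both deletions. HIS4, which carries out several steps of the pathway, was at 732 and 769 RPKM in sin3∆, against 101 and 104 RPKM in srb2∆.

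Aromatic amino acid genes were higher in 8 of 16 cases and lower in none (median 1.0). For 7 of these 8 the wild type mean lay below both deletions. ARO3, which opens the pathway, was 4.75-fold higher, and ARO10 and ARO9, which act in the breakdown of aromatic amino acids, were 5.75-fold and 3.84-fold higher. ARO5, a Gcn4-induced gene of aromatic amino acid synthesis, was at 345 and 379 RPKM in sin3∆, against 12.5 and 12.9 RPKM in srb2∆ and 73.2 and 82.6 RPKM in the wild type. In the sulfur pathway 13 of 30 genes were higher and 2 lower (median 0.74). STR3, cystathionine beta-lyase, stood out: it was at 91.6 and 93 RPKM in sin3∆, against 1.35 and 1.30 RPKM in srb2∆ and 27.7 and 21.8 RPKM in the wild type, a log2 fold change of 5.33 ± 0.13 (SE) with a limma adjusted p of 2.4e-07. MET6, methionine synthase, was at 436 and 445 RPKM in sin3∆, against 77.7 and 80.6 RPKM in srb2∆.

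Serine, glycine and threonine genes divided. Of 19 tested, 5 were higher and 3 lower. CHA1, the catabolic serine and threonine deaminase, was at 1347 and 1271 RPKM in sin3∆, against 109 and 105 RPKM in srb2∆. HOM3 and HOM2, which carry aspartate toward threonine and methionine, were 5.17-fold and 4.52-fold higher. GCV1, a subunit of the glycine cleavage complex, was lower, at 20.9 and 24.1 RPKM in sin3∆, against 87.9 and 93.1 RPKM in srb2∆ and 43.9 and 44.8 RPKM in the wild type. The plot of the gene lists places these pathways beside most of the others described here.

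**Figure D3:**
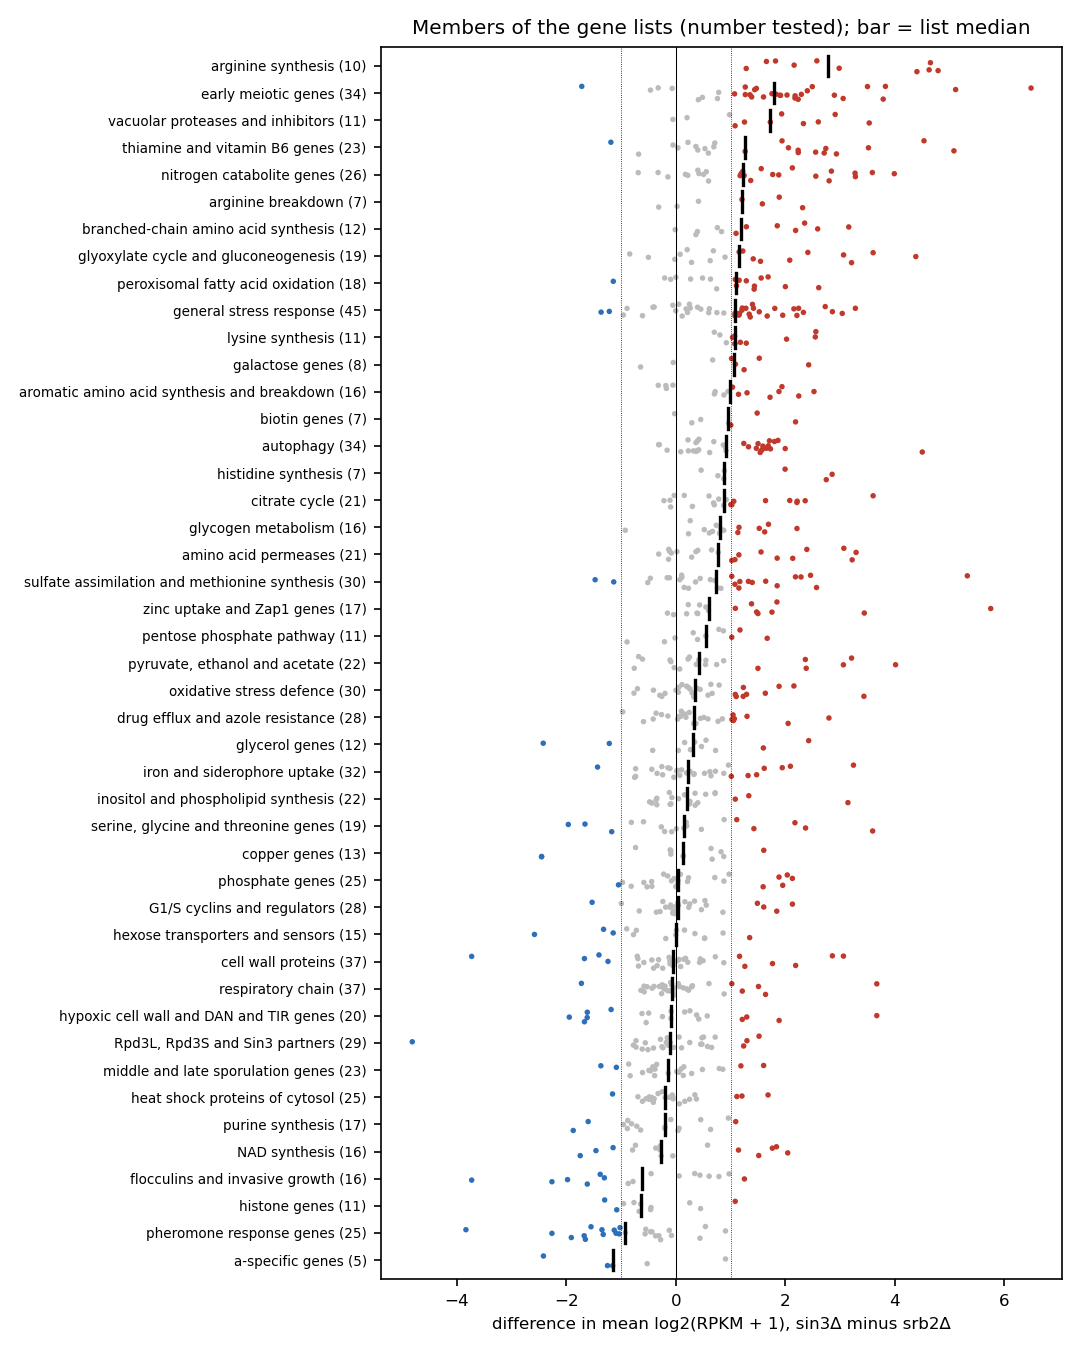
Each point is 1 tested gene of a list, placed by its difference in mean log2(RPKM + 1), sin3∆ minus srb2∆ (red, called higher in sin3∆; blue, called lower; grey, not called), and black bars mark list medians. Arginine synthesis stands at the top with a median of 2.78 and a-specific genes at the bottom with -1.15; dotted lines mark a 2-fold difference.

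The Gcn4 core TGACTC, on either strand, stood in 6 of the 10 arginine synthesis promoters (60%), in 6 of 7 histidine synthesis promoters (85.7%), in 7 of 12 branched-chain promoters (58.3%) and in 5 of 11 lysine promoters (45.5%), against 358 of 5576 (6.42%) of all promoters. Gcn4 is the activator of amino acid synthesis genes in amino acid starvation. Among genes called higher 15.1% of promoters held the core, against 6.21% among genes called lower. The stretches of HIS4 (chrIII:68497-68583, reverse strand) and ARG4 (chrVIII:141546-141611, reverse strand) are shown on the strand of the gene as examples with 2 cores and with 1 core in capitals.
HIS4: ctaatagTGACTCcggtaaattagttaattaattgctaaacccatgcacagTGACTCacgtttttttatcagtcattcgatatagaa
ARG4: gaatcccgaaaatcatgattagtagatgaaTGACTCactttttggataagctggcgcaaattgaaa
HIS4 was 7.24-fold and ARG4 21.2-fold higher in sin3∆. The core was absent from the window of ARG3 and ARG1, which had larger fold changes than ARG4, so the fold change did not order with these letters.

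Genes for the uptake and use of other nitrogen sources followed the same direction. Of 26 nitrogen catabolite genes tested, 16 were higher in sin3∆ and none lower (median 1.24), and of 21 amino acid permeases 10 were higher and none lower (median 0.78). UGA2, succinate semialdehyde dehydrogenase of the GABA pathway, was at 300.2 and 321 RPKM in sin3∆, against 19.4 and 17.8 RPKM in srb2∆ and 114 and 121 RPKM in the wild type. GDH2, the glutamate dehydrogenase that releases ammonium, was at 889.5 and 936 RPKM in sin3∆, against 73 and 76.7 RPKM in srb2∆ and 28.4 and 23.3 RPKM in the wild type. The order of the strains differed between these genes, since the wild type lay between the deletions for UGA2 and below both for GDH2.

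MEP2, an ammonium permease, was at 194 and 187 RPKM in sin3∆, against 18 and 19.6 RPKM in srb2∆ and 16.9 and 14.6 RPKM in the wild type. Permeases that take up several amino acids were higher as well: AGP1 was 9.33-fold, DIP5 9.81-fold and BAP3 5.26-fold higher. The genes of the GATA activators of nitrogen catabolite genes were also higher in sin3∆ than in srb2∆. GAT1 was at 87.1 and 79.4 RPKM in sin3∆, against 18.3 and 18.1 RPKM in srb2∆ and 40.1 and 41.3 RPKM in the wild type. GLN3 was at 17.5 and 16.7 RPKM in sin3∆, against 3.99 and 4.64 RPKM in srb2∆ and 14.05 and 10.3 RPKM in the wild type. For both, the wild type mean lay nearer sin3∆, unlike for GDH2 and MEP2. UGA3 and PUT3, activators of GABA and proline use, were 2.95-fold and 2.31-fold higher.

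Vacuolar and autophagy genes were higher without exception among those called. Of 11 genes for vacuolar proteases and their inhibitors, 8 were higher and none lower (median 1.73), and of 34 autophagy genes 16 were higher and none lower (median 0.91). ATG41, which sets the rate of autophagosome formation, was at 214 and 202 RPKM in sin3∆, against 9.01 and 7.49 RPKM in srb2∆ and 11.1 and 10.1 RPKM in the wild type. APE1, the vacuolar aminopeptidase delivered by the Cvt pathway, was at 87 and 90.7 RPKM in sin3∆, against 14.2 and 13.3 RPKM in srb2∆ and 121 and 108 RPKM in the wild type. The wild type mean lay above both deletions for 7 of the 8 vacuolar genes that were called and for 6 of the 16 autophagy genes.

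PBI2, an inhibitor of vacuolar proteinase B, was at 582 and 509 RPKM in sin3∆, against 30.0 and 70.4 RPKM in srb2∆ and 2085 and 2442 RPKM in the wild type. Its srb2∆ libraries differed from each other by more than those of most genes, and its log2 fold change of 3.53 ± 0.34 (SE) ran between 2.93 without srb2∆ replicate 2 and 4.14 without srb2∆ replicate 3. PAI3, an inhibitor of proteinase A, was the least stable of these calls, at 29.6 and 26.5 RPKM in sin3∆, against 13.8 and 0 RPKM in srb2∆, and its log2 fold change of 2.91 became 0.97 and lost the call without srb2∆ replicate 3, and the call was also lost without sin3∆ replicate 1 (2.84) and without sin3∆ replicate 2 (2.99). TFS1, an inhibitor of carboxypeptidase Y, was 5.04-fold higher with close replicates.

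Genes for zinc, iron and cofactors contained several of the strongest differences. ZRT1, the high-affinity zinc transporter, was at 923 and 951 RPKM in sin3∆, against 15.9 and 16.9 RPKM in srb2∆ and 15.2 and 14.7 RPKM in the wild type, a log2 fold change of 5.75 ± 0.09 (SE) with a limma adjusted p of 7.2e-08. ZPS1, a zinc-regulated cell surface protein, was at 85.3 and 79.7 RPKM in sin3∆, against 6.41 and 6.93 RPKM in srb2∆. The level of both in srb2∆ was close to that in the wild type. ZAP1, the activator of zinc genes, was at 15.8 and 13.5 RPKM in sin3∆, against 3.64 and 3.56 RPKM in srb2∆ and 17.1 and 14.8 RPKM in the wild type, and so had a different order of strains from that of ZRT1. Of 17 zinc genes tested, 8 were higher and none lower. Iron and siderophore genes were higher in 7 of 32 cases and lower in 1. FIT2, a cell wall mannoprotein that retains siderophore iron, was at 162 and 172 RPKM in sin3∆, against 19.5 and 14.3 RPKM in srb2∆.

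Of 23 thiamine and vitamin B6 genes tested, 12 were higher and 1 lower (median 1.27). The wild type mean lay above both deletions for 7 of the 12 higher genes. SNZ1, a subunit of pyridoxal phosphate synthase, was at 625 and 654 RPKM in sin3∆, against 19.4 and 16.6 RPKM in srb2∆ and 16.3 and 15.4 RPKM in the wild type. Its partner SNO1, encoded beside it, was at 120.1 and 125 RPKM in sin3∆, against 9.79 and 9.74 RPKM in srb2∆. THI4, the thiazole synthase, had another order of strains: it was at 1215 and 1248 RPKM in sin3∆, against 50.1 and 54.3 RPKM in srb2∆ and 1113 and 1123 RPKM in the wild type, so that srb2∆ stood apart. Near-identical copies in this list, THI5, THI11, THI12 and THI13, and SNZ2 and SNZ3, may share reads, and their separate values are uncertain. NAD synthesis was mixed, with 5 of 16 genes higher and 3 lower. BNA4, kynurenine 3-monooxygenase, was 4.13-fold higher and BNA6, quinolinate phosphoribosyltransferase, 3.35-fold lower, at 6.65 and 7.41 RPKM in sin3∆, against 27 and 24.9 RPKM in srb2∆.

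**Figure D4:**
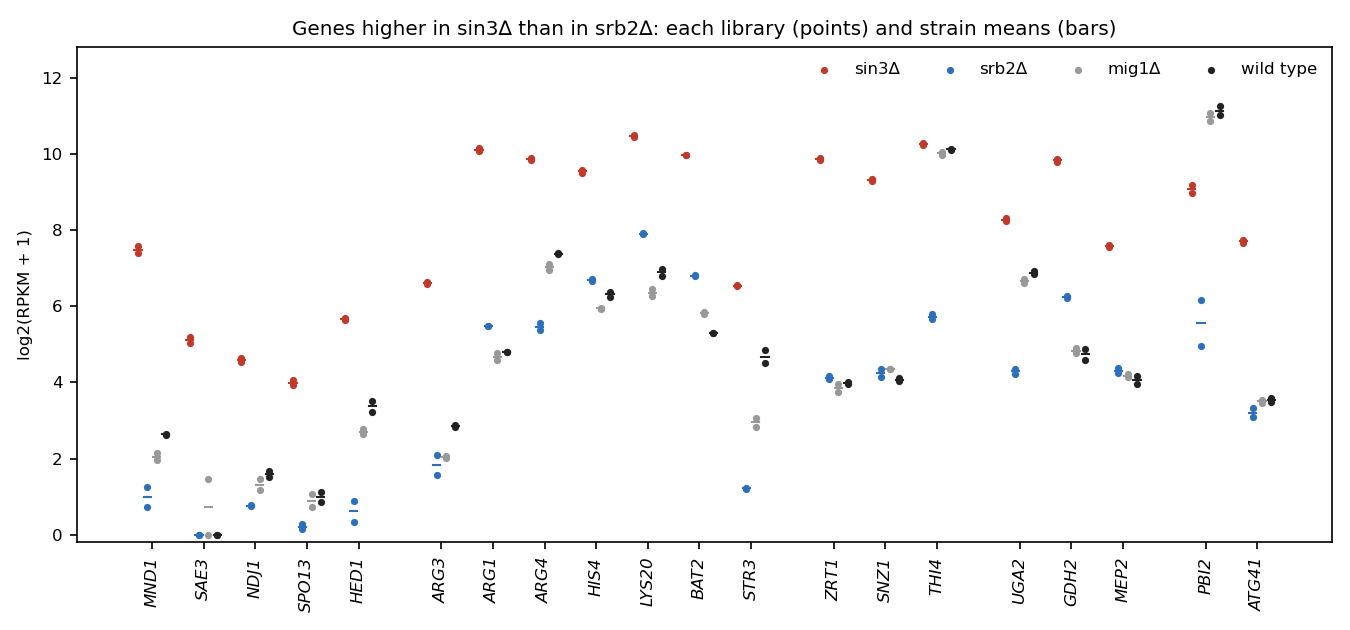
Log2(RPKM + 1) in each library (points) with the strain mean (bars) for 20 genes higher in sin3∆ than in srb2∆, with mig1∆ and the wild type for reference. From left to right stand meiotic genes, amino acid synthesis genes, zinc and vitamin genes, nitrogen genes and vacuolar genes; the 2 libraries of a strain nearly coincide for most genes, and the wild type lies near sin3∆ for THI4, near srb2∆ for ZRT1 and above both for PBI2.

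Genes of respiratory carbon use were higher in sin3∆ at many steps. Of 19 genes of the glyoxylate cycle and gluconeogenesis, 10 were higher and none lower (median 1.16). SIP4, an activator of gluconeogenic genes, was at 27.3 and 31.1 RPKM in sin3∆, against 0.429 and 0.459 RPKM in srb2∆ and 2.16 and 2.06 RPKM in the wild type. CIT2, the peroxisomal citrate synthase, was at 493 and 471 RPKM in sin3∆, against 40.4 and 37 RPKM in srb2∆ and 45 and 36.9 RPKM in the wild type. Of 21 citrate cycle genes 9 were higher and none lower (median 0.88), and of 18 genes of peroxisomal fatty acid oxidation 10 were higher and 1 lower (median 1.10). CIT1, the mitochondrial citrate synthase, was 4.65-fold higher, IDP1, mitochondrial isocitrate dehydrogenase, 5.15-fold, and FOX2, which acts in beta-oxidation, 6.11-fold. Of 37 respiratory chain genes, 5 were higher (13.5%, against 11.9% of all genes) and 1 lower (2.7%, against 2.95%), with a median of -0.08. The chain thus held calls at about the share of all genes and did not follow the citrate cycle as a list.

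Some single respiratory genes among these calls differed strongly. COX5B, the hypoxic isoform of a cytochrome c oxidase subunit, was at 78.4 and 84.5 RPKM in sin3∆, against 4.31 and 6.87 RPKM in srb2∆ and 105 and 132 RPKM in the wild type. NDE1, the external NADH dehydrogenase, was lower, at 62.7 and 64.5 RPKM in sin3∆, against 213 and 212 RPKM in srb2∆ and 49.5 and 42.6 RPKM in the wild type. In the second case it was srb2∆ that stood above the other strains. Of 22 genes of pyruvate, ethanol and acetate, 6 were higher (27.3%, against 11.9% of all genes) and none lower, with a median of 0.42. PDC5, a minor pyruvate decarboxylase, was at 122 and 125 RPKM in sin3∆, against 24 and 21.6 RPKM in srb2∆ and 1035 and 827 RPKM in the wild type. ADH5, an alcohol dehydrogenase, was 16.2-fold and ALD5, a mitochondrial aldehyde dehydrogenase, 8.35-fold higher.

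The general stress response, the genes that Msn2 and Msn4 activate, separated the deletions below the level of the wild type. Of 45 genes tested, 24 were higher in sin3∆ and 2 lower (median 1.08), and the list took 0.491% and 0.568% of all RPKM in sin3∆ libraries, against 0.291% and 0.312% in srb2∆ libraries and 2.83% and 2.63% in the wild type. The wild type mean lay above both deletions for 19 of the 24. YGP1, a secreted stress glycoprotein, was at 1188 and 1302 RPKM in sin3∆, against 164 and 177 RPKM in srb2∆ and 1302 and 1283 RPKM in the wild type. GAD1, glutamate decarboxylase, was at 47.4 and 55.2 RPKM in sin3∆, against 7.27 and 6.47 RPKM in srb2∆ and 217 and 178 RPKM in the wild type. HSP26, a small heat shock protein, was at 40.0 and 45.3 RPKM in sin3∆, against 17.7 and 18 RPKM in srb2∆ and 608 and 708 RPKM in the wild type, and both deletions were far below the wild type. The stress response element CCCCT, on either strand, stood in 32 of the 45 promoters (71.1%), against 19.1% of all promoters.

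Heat shock proteins of the cytosol did not follow as a list, with a median of -0.19. Of 25 tested, 3 were higher (12%, against 11.9% of all genes) and 1 lower (4%, against 2.95%). SIS1, an essential Hsp40 co-chaperone, was the lower one, at 162 and 164 RPKM in sin3∆, against 364 and 365 RPKM in srb2∆. HSP42 was called 2.17-fold higher but lost the call without sin3∆ replicate 2, with a log2 fold change of 0.97. Oxidative stress genes were higher in 9 of 30 cases and lower in none. PRX1, the mitochondrial peroxiredoxin, was at 281 and 288 RPKM in sin3∆, against 68.5 and 57.7 RPKM in srb2∆ and 261 and 283 RPKM in the wild type. Of 16 glycogen genes, 6 were higher and none lower (median 0.81). Glycerol genes divided: GCY1 was 5.38-fold higher and GUT1, glycerol kinase, 3.03-fold higher, while STL1, the glycerol symporter, was at 0.578 and 0.760 RPKM in sin3∆, against 7.54 and 8.32 RPKM in srb2∆. GPD1, which makes glycerol 3-phosphate, was lower at 284 and 409 RPKM in sin3∆, against 753 and 834 RPKM in srb2∆, and lost the call without sin3∆ replicate 1, with a log2 fold change of -0.95.

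Genes lower in sin3∆ were led by those of mating and filamentous growth. In a cell of mating type a, the a-specific genes and the pheromone pathway make the cell ready to answer alpha-factor, through the activator Ste12. Of 5 a-specific genes tested, 3 were lower and none higher (median -1.15), and of 25 pheromone response genes 12 were lower and none higher (median -0.92). BAR1, the protease that degrades alpha-factor, was at 9.84 and 9.15 RPKM in sin3∆, against 53.2 and 56.9 RPKM in srb2∆ and 79.3 and 78.4 RPKM in the wild type. STE2, the alpha-factor receptor, was at 156 and 145 RPKM in sin3∆, against 339 and 334 RPKM in srb2∆ and 477 and 463 RPKM in the wild type. STE6, the a-factor exporter, was at 21.3 and 19.1 RPKM in sin3∆, against 48.7 and 49.8 RPKM in srb2∆. Each of these genes was lower in every sin3∆ library than in any srb2∆ library. Such a lack of overlap, in either direction, was found for 4726 of the 5628 genes tested, so it does not set these genes apart.

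AGA1, the anchor subunit of a-agglutinin, was at 6.38 and 6.27 RPKM in sin3∆, against 33.1 and 35.2 RPKM in srb2∆ and 78.6 and 68.3 RPKM in the wild type. FUS1, needed for cell fusion, was at 4.50 and 5.17 RPKM in sin3∆, against 20.8 and 20.9 RPKM in srb2∆ and 19.5 and 20.8 RPKM in the wild type. PRM5, induced by pheromone and by cell integrity signals, was at 4.61 and 3.96 RPKM in sin3∆, against 73.5 and 74.8 RPKM in srb2∆ and 12.4 and 11.4 RPKM in the wild type, a log2 fold change of -3.83 ± 0.15 (SE) with a limma adjusted p of 1.4e-06. The srb2∆ level was near that of the wild type for FUS1 but above it for PRM5 and for SST2, the regulator that shuts off pheromone signalling, at 15 and 13.5 RPKM in sin3∆, against 48.9 and 46.3 RPKM in srb2∆ and 26 and 21.1 RPKM in the wild type.

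The summed level of 7 markers of a cells was 295 and 267 RPKM in sin3∆ libraries, against 629 and 541 RPKM in srb2∆ libraries, and the a-factor genes MFA1 and MFA2 were listed at 0 in every library. The summed level of 4 markers of alpha cells was 28.8 and 32.0 RPKM in sin3∆, against 27.5 and 27.7 RPKM in srb2∆, and the alpha-cell receptor gene STE3 was at or near 0 in all libraries. Whether the share of a cells able to answer pheromone differed between the cultures was not tested. Not all a-specific genes were lower: ASG7 was at 7.52 and 6.91 RPKM in sin3∆, against 3.37 and 3.39 RPKM in srb2∆, and AGA2 at 101 and 86 RPKM in sin3∆, against 185 and 97.3 RPKM in srb2∆, neither called.

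The pheromone response element TGAAACA, to which Ste12 binds, stood on either strand in 12 of 25 pheromone response promoters (48%) and in 4 of 5 a-specific promoters (80%), against 6.01% of all promoters. Of promoters of genes called lower 12.4% held it, against 5.27% of those called higher. The stretches of FUS1 (chrIII:71586-71679, forward strand) and BAR1 (chrIX:322128-322194, forward strand) are shown on the strand of the gene, with the element in capitals, as examples with 2 matches and with 1 match.
FUS1: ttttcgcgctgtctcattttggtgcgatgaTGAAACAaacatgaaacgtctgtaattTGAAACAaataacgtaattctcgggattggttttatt
BAR1: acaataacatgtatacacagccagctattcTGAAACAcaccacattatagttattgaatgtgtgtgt
The gene with 2 matches, FUS1, was 3.75-fold lower in sin3∆ and the gene with 1 match, BAR1, 5.34-fold lower. STE12 itself was lower, with a log2 fold change of -1.03.

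Most of the filamentous growth genes that were called shared the direction. Of 16 flocculin and invasive growth genes tested, 6 were lower and 1 higher (median -0.62). The list as a whole was divided, with 9 negative and 7 positive log2 fold changes. FLO11, the cell wall flocculin of invasive and biofilm growth, was at 4.54 and 3.97 RPKM in sin3∆, against 65.8 and 71.4 RPKM in srb2∆ and 1.47 and 1.21 RPKM in the wild type, so that srb2∆ stood above the other strains. TEC1, the partner of Ste12 in filamentous growth, was at 13.7 and 14 RPKM in sin3∆, against 53.9 and 61.1 RPKM in srb2∆ and 52.8 and 58.3 RPKM in the wild type, so that here sin3∆ stood below. The 2 largest falls among genes not listed at 0 throughout in sin3∆ belonged to neighbours on chromosome XII. NFG1, at bases 229966 to 230451 and a negative regulator of filamentous growth, was at 3.15 and 1.23 RPKM in sin3∆, against 105 and 109 RPKM in srb2∆ and 203 and 279.7 RPKM in the wild type. AFB1, at bases 228908 to 229582 and described as an a-factor blocker specific to alpha cells, was at 0 and 0.414 RPKM in sin3∆, against 18.2 and 20.9 RPKM in srb2∆ and 24.7 and 24.9 RPKM in the wild type. Their log2 fold changes were -5.15 ± 0.28 (SE) and -4.11 ± 0.18 (SE), with limma adjusted p of 6.7e-06 and 2.2e-06.

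**Figure D5:**
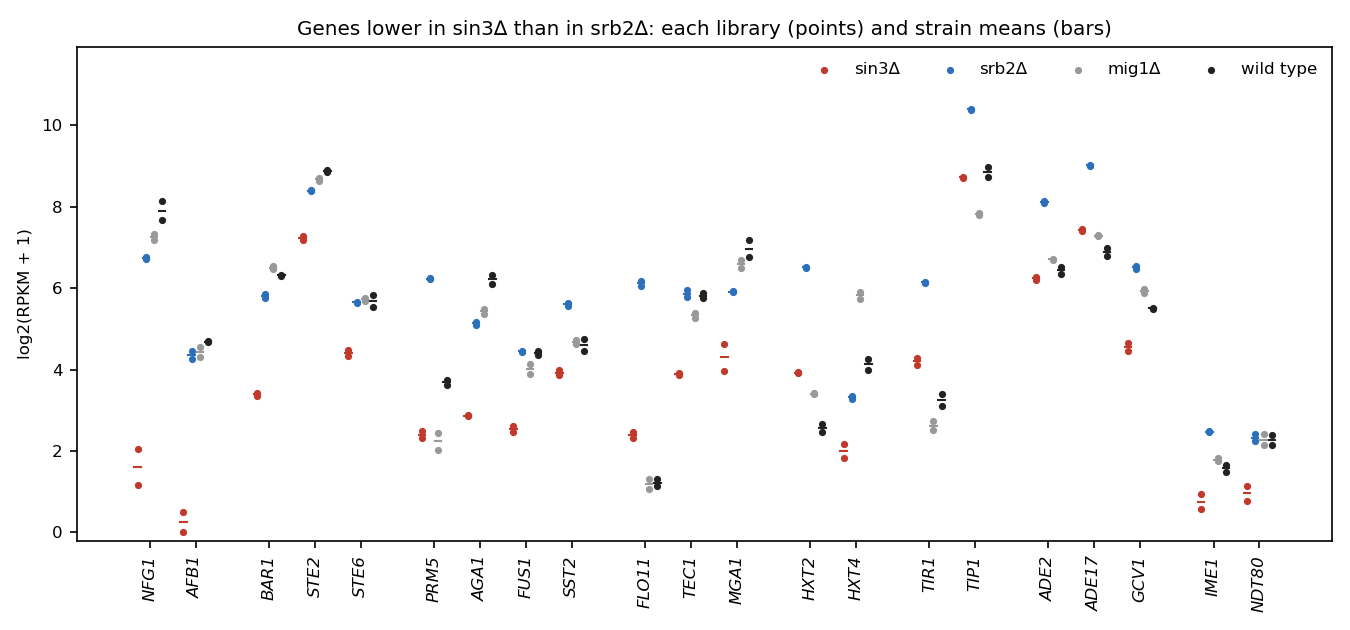
Log2(RPKM + 1) in each library (points) with the strain mean (bars) for 21 genes lower in sin3∆ than in srb2∆, with mig1∆ and the wild type for reference. From left to right stand the NFG1 and AFB1 pair, a-specific genes, pheromone genes, filamentous growth genes, hexose transporters, TIR1 and TIP1, purine and glycine genes, and meiotic regulators; the wild type lies with srb2∆ for FUS1 and TEC1 and with or below sin3∆ for FLO11, HXT2 and TIR1.

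Of 15 hexose transporters and sensors, 3 were lower and 1, the glucose sensor SNF3, was higher, with a median log2 fold change of 0.001. HXT2, a high-affinity glucose transporter, was at 14.3 and 14.2 RPKM in sin3∆, against 91 and 89.4 RPKM in srb2∆ and 5.36 and 4.49 RPKM in the wild type. HXT4 was at 2.53 and 3.52 RPKM in sin3∆, against 8.70 and 9.23 RPKM in srb2∆ and 18.3 and 15 RPKM in the wild type, so that the wild type was below both for HXT2 and above both for HXT4. Members of this family are similar in sequence, and reads may be shared between them. MIG1, the glucose repressor, was at 22.7 and 22.9 RPKM in sin3∆, against 63.1 and 65.7 RPKM in srb2∆ and 28.9 and 25.5 RPKM in the wild type. Galactose genes were higher in 5 of 8 cases, at low levels: GAL10 was at 6.15 and 5.31 RPKM in sin3∆, against 1.61 and 2.06 RPKM in srb2∆.

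Of 37 genes of cell wall proteins, 6 were higher (16.2%, against 11.9% of all genes) and 4 lower (10.8%, against 2.95%). Their median log2 fold change was -0.05. DSE1 and DSE2, which serve the separation of daughter from mother, were higher, DSE2 at 74.8 and 74.1 RPKM in sin3∆, against 7.25 and 8.89 RPKM in srb2∆. The endochitinase CTS1 was 3.40-fold and the glucanase SCW11 4.56-fold higher. Of 20 hypoxic genes, a list that includes the DAN and TIR mannoproteins, 4 were higher, COX5B among them, and 5 lower (median -0.09). TIR1 and TIP1, cell wall mannoproteins of cold and low oxygen, were lower: TIR1 was at 18.5 and 16.4 RPKM in sin3∆, against 69.4 and 70.6 RPKM in srb2∆ and 9.62 and 7.60 RPKM in the wild type, and TIP1 at 421 and 427 RPKM in sin3∆, against 1357 and 1341 RPKM in srb2∆ and 424 and 504 RPKM in the wild type. In both cases srb2∆ stood above the other strains.

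Of 17 purine synthesis genes, 2 were lower and 1 higher. ADE17, which completes inosine monophosphate, was at 169 and 174 RPKM in sin3∆, against 516 and 525 RPKM in srb2∆ and 126 and 110.5 RPKM in the wild type. ADE2, an earlier enzyme of the pathway, was at 72.5 and 77.1 RPKM in sin3∆, against 273 and 280.2 RPKM in srb2∆ and 91.3 and 80.8 RPKM in the wild type. ADE12, which turns inosine monophosphate toward AMP, was 2.14-fold higher. Among 11 histone genes HHO1, the linker histone, was 2.12-fold higher, while HHT1 and HTB1, core histones with near-identical copies, were 2.46-fold and 2.11-fold lower. CLN1, a G1 cyclin, was at 8.34 and 8.57 RPKM in sin3∆, against 25.2 and 27.3 RPKM in srb2∆, and NRM1, a corepressor of G1/S genes, at 120.4 and 96.1 RPKM in sin3∆, against 24.5 and 23.1 RPKM in srb2∆.

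INO1, inositol 3-phosphate synthase, was at 2059.5 and 2097 RPKM in sin3∆, against 231 and 237 RPKM in srb2∆ and 5558 and 5235 RPKM in the wild type. OPI3, which methylates phospholipids, was 2.52-fold higher, and INO2, the activator of both, was at 68.5 and 74.4 RPKM in sin3∆, against 31.3 and 34.9 RPKM in srb2∆. For each of these genes the wild type was at or above the sin3∆ level. Among 113 regulators tested, 15 were higher (13.3%, against 11.9% of all genes) and 9 lower (7.96%, against 2.95% of all genes), with a median log2 fold change of 0.11. UME6, which recruits Sin3 to URS1, was at 39.1 and 37.1 RPKM in sin3∆, against 14.8 and 16.3 RPKM in srb2∆ and 10.5 and 12.1 RPKM in the wild type. Of 29 genes for Sin3 and its partners in the Rpd3 complexes, 3 were higher (10.3%, against 11.9% of all genes), with a list median of -0.10. The 1 lower gene (3.45%, against 2.95% of all genes) was the deleted SIN3 itself. The list as a whole thus held calls at about the share of all genes. SAP30, a subunit of the large Rpd3 complex, was at 231 and 235 RPKM in sin3∆, against 77.2 and 84 RPKM in srb2∆ and 137 and 152 RPKM in the wild type.

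The largest machines of the cell did not separate the strains by the call rule. None of 77 tested genes of the large and none of 54 of the small cytosolic ribosomal subunit was called, with median log2 fold changes of 0.05 and 0.07, which became -0.03 and -0.04 under quantile normalization. None of 35 proteasome genes was called, although their median was -0.54, and of 98 ribosome biogenesis genes 1 was lower, with a median of -0.47. Those of RNA polymerases I and III (31 genes, median -0.41), of protein folding in the endoplasmic reticulum (28 genes, median -0.23) and of the tRNA synthetases (20 genes, median -0.15) held no call either. These lists lay below the median of all genes by less than the 2-fold the rule asks of a gene. Their small differences were mostly in one direction. The log2 fold change was negative for 34 of 35 proteasome, 94 of 98 ribosome biogenesis and 27 of 31 polymerase genes. It was negative for 19 of 28 folding genes and 14 of 20 tRNA synthetase genes, against 2784 of all 5628 genes. Of all 67 lists, 22 held at least 3 higher genes and no lower one, 2 held at least 3 lower genes and no higher one, and 9 held no call.

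Some large differences rest on uncertain features. CUP1-1 and CUP1-2, identical copies of the copper metallothionein gene, had the same value in every library, 14.1 and 28.6 RPKM in sin3∆, against 54.8 and 238 RPKM in srb2∆, and their log2 fold change of -2.45 lost the call without srb2∆ replicate 3 (-1.40) and without sin3∆ replicate 1 (-1.97). ETS1-1 and ETS1-2, transcribed spacers of the ribosomal DNA that also shared all values, were at 20.0 and 10.2 RPKM in sin3∆, against 176 and 102 RPKM in srb2∆. The small nucleolar RNA snR33 was at 169 and 101 RPKM in sin3∆ and was listed at 0 in every srb2∆ and wild type library, a pattern in RNA of short length. STF2 and SRX1, a stress gene and the sulfiredoxin, kept their calls whichever single library was left out, but their log2 fold changes of 3.04 and 3.44 ran from 2.06 to 4.02 and from 2.64 to 4.24 as single srb2∆ libraries were left out.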

How the data were processed

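RNA from 8 libraries was analysed, 2 per strain, and sin3∆ was compared with srb2∆. According to the methods and the submitters' processing notes, the authors aligned the reads to the R64 transcripts with Bowtie2, estimated transcripts with RSEM and deposited RPKM values per gene, in a table whose name says that they were also TMM-normalized between libraries. The columns of that table summed to different totals. Low values showed no clean steps of whole reads, so depth in reads and counting error are unknown, and precision is that of 2 libraries per strain. The other deposited tables hold the authors' own fold changes and p-values against the wild type and were not used. Of 6103 genes, 5977 were matched to R64 and 309 were at 0 in all libraries. Whether counting used strand is not given in the sources used here, so reads of overlapping antisense genes cannot be told apart (GAL10, GAL4, PHO84 and CUP1 among the named genes).

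Values were transformed as log2(RPKM + 1), and all 4 strains were fitted together in limma 3.58.1 (R 4.3.3) with a trended prior and 4 residual degrees of freedom. Fold changes are on this scale, which understates those of low genes. P-values were adjusted by Benjamini and Hochberg over all genes tested. Nothing in the labels says that the libraries of a strain came from separate cultures, so p-values measure only the spread between these libraries. With 2 libraries against 2, an exact permutation test of a single gene cannot go below 1 in 3. The fit was first tested on simulated data in which seeded genes had been changed.

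The 67 gene lists and the strains compared were chosen with earlier results of these data known. A list was described where at least 3 members were called. Named genes were the deleted genes with the 2 neighbours on each side, the 12 called genes highest and the 12 lowest in log2 fold change without overlap between the strains and with a mean of at least 10 RPKM in the higher one, up to 4 called genes per list described by size of change, up to 8 called regulators per direction and the cell type markers. Some genes that met this rule, and 1 list, are not reported here. Other genes and promoters named were chosen after their values were seen. Promoters were the 250 bases before each start codon in R64 from RefSeq, for 5576 tested genes. Alternatives varied the pseudocount, filter, scaling, prior, samples fitted and threshold. Python 3.11.15, pandas 2.3.3, numpy 2.4.6 and matplotlib 3.10.9 were used.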

Additional observations from a re-analysis of the deposited data

How the results depend on the processing

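No gene named among the calls changed direction under any alternative, and 160 of 187 named calls passed in every setting. The 670 higher calls became 1739 with no fold threshold, and the 166 lower calls became 1569, 98 with a pseudocount of 5, and 251 under quantile normalization. In the remaining planned settings on scale, filter, scaling, prior and threshold, higher calls stayed between 496 and 732 and lower calls between 145 and 213. With single libraries left out they ran between 662 and 673 higher and between 166 and 173 lower, the strain left with a lone library being assumed to vary like the others. Besides the calls given with their values above, AMA1 lost its call without sin3∆ replicate 1 (0.97) and SPS4 without srb2∆ replicate 2 (-0.96). Without genes under 300 bases or not matched to R64, chosen after the data were seen, 645 were higher and 157 lower. A pseudocount of 5 ended 19 named calls, among them IME1 (-0.75), NDT80 (-0.60), HXT4 (-0.80) and GAL10 (0.65). The pseudocount shrinks low genes by construction, and for the other lost calls the cause was not tested. No paired analysis was possible because the sin3∆ libraries (replicates 1 and 2) and the srb2∆ libraries (replicates 2 and 3) share a single replicate number. Depth is unknown, so absence cannot be told from low depth.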

Other observations

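Genes near chromosome ends held calls in both directions. Of 142 tested genes within 20000 bases of an end, 34 (23.9%) were higher and 19 (13.4%) lower in sin3∆, against 630 (11.6%) higher and 142 (2.61%) lower of the 5434 genes farther inside, and the median log2 fold change near the ends was -0.04. The difference between these shares was not tested. COS9, YDR541C, ARR1 and SGE1, given next, were all among the lower genes, while CHA1, given above, was among the higher ones. COS9, an endosomal protein of a subtelomeric family that turns over plasma membrane proteins, was at 2.11 and 1.79 RPKM in sin3∆, against 23.9 and 22 RPKM in srb2∆ and 12.9 and 12.6 RPKM in the wild type. YDR541C, an aldehyde reductase, was at 1.17 and 1.63 RPKM in sin3∆, against 20.0 and 17.7 RPKM in srb2∆ and 14.1 and 11 RPKM in the wild type. In both genes sin3∆ stood below the other strains. ARR1, the activator of the arsenic resistance genes at the end of chromosome XVI, was at 4.29 and 3.86 RPKM in sin3∆, against 40.2 and 38.1 RPKM in srb2∆ and 50.1 and 55.9 RPKM in the wild type, and SGE1, a drug transporter beside it, at 7.62 and 5.54 RPKM in sin3∆, against 49.7 and 55.4 RPKM in srb2∆ and 29 and 27.9 RPKM in the wild type. Many genes near ends belong to families of similar copies, so single values are uncertain.

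Close together near the left end of chromosome XV lay 2 genes that were listed at 0 in whole strains. The strains did not share one pattern there. YOL159C-A, a protein of unknown function, was listed at 0 in both sin3∆ libraries, was at 32.2 and 36.3 RPKM in srb2∆ and was listed at 0 in mig1∆ and wild type libraries. ENB1, a siderophore transporter, was at 48.7 and 47.6 RPKM in sin3∆, against 19.3 and 18.1 RPKM in srb2∆, and was listed at 0 in every mig1∆ and wild type library. A value of 0 throughout a strain does not tell a gene without RNA from a sequence that the strain lacks, and whether the strains share the same sequence there was not tested.

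Of 52 tested features that were not matched to R64 by name, most of them non-coding RNAs, 6 were higher and 5 lower in sin3∆. Of all genes tested, 11.9% were higher and 2.95% lower. The lower features included ETS1-1 and ETS1-2, which shared all values. SRG1, a non-coding RNA transcribed across the promoter of the serine gene SER3, was at 23.4 and 20.3 RPKM in sin3∆, against 8.06 and 8.10 RPKM in srb2∆ and 14 and 12.9 RPKM in the wild type. RPR1, the RNA of ribonuclease P, was at 1.81 and 1.45 RPKM in sin3∆, against 12.1 and 10.0 RPKM in srb2∆ and 3.37 and 1.69 RPKM in the wild type. ENB1, SRG1 and RPR1 were chosen after their values were seen.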
